A study of Mus musculus with 74 samples.

Results

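The NR4A and EGR immediate early factors are described here across a time course of T helper cell differentiation. The set holds 7 genes of 13817 genes tested: *Nr4a1*, *Nr4a2*, *Nr4a3*, *Egr1*, *Egr2*, *Egr3*, and *Nab2*. They were chosen by gene symbol, and each gene is represented by its probe with the highest mean over all 74 arrays. All 7 passed the filter on dim probes. Naive CD4+ CD62Lhi T cells came from pooled spleen and lymph node of Balb/c mice aged 5 to 8 weeks, and their RNA was read on Illumina mouse bead arrays. Cells at 0 h were compared with 4 cultures, all activated by anti-CD3 and anti-CD28, at 3, 6, 12, 24, 35, 48, 73, 96, and 120 h. Th0 cells received antibodies against IFN-γ, IL-4, and IL-12; Th1 cells received IL-12 and anti-IL-4; Th2 cells received IL-4, anti-IL-12, and anti-IFN-γ; and Th1/2 hybrid cells received IL-12 together with IL-4. Each of 2 independent experiments gave 1 array per condition, so that a time point after 0 h has 8 arrays and 0 h has 2. The labels give only replicate numbers, and each number is taken here as 1 experiment.

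The NR4A proteins are orphan nuclear receptors, and the EGR proteins are zinc-finger transcription factors that bind GC-rich sites. Their genes are switched on within minutes to hours of antigen receptor signalling, through calcium and MAP kinase pathways acting on CREB, SRF, and MEF2 factors that are already present. NAB2 is a corepressor that binds EGR proteins and is itself induced by them. In T cells, EGR2, EGR3, and the NR4A receptors are known for limiting activation and for roles in anergy and exhaustion.

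Promoter sequence in RefSeq (GRCm38.p6) was found for 5 of the 7 genes, all but *Egr1* and *Egr3*. It is shown because the 3 receptor genes share a feature there. The 250 bases before each listed start were searched on both strands for the cyclic AMP response element (CRE) TGACGTCA, the CArG box bound by SRF, the EGR site GCGTGGGCG, and the NR4A site AAAGGTCA. Of all 32851 promoters, 1.55% hold the CRE, 1.47% a CArG box, 0.536% the EGR site, and 1.34% the NR4A site. The only one of these found in the 5 genes was the CArG box, at *Egr2*. After the sequences had been seen, the shorter CRE core TGACG was also counted, which lies within the CRE and is met there on both strands. It occurs at least once in 17.8% of promoters and at least 4 times in 0.137%, and *Nr4a1*, *Nr4a2*, and *Nr4a3* hold 4 copies each. *Nab2*, whose profile had a Pearson's r of 0.940 with *Nr4a2* and 0.954 with *Nr4a3* over the conditions, holds 0, and the 5 *Egr2* starts hold 0 or 2. These are matches of letters only. The bases searched are 74.4% G and C at *Nr4a1*, 80% at *Nr4a2*, 63.6% at *Nr4a3*, and 72.8% at *Nab2*. The shares given are over all promoters, whatever their base composition. Below, capitals mark the TGACG core on either strand and the CArG box. The *Nr4a2* stretch (chr2:57124004-57124253, minus strand) lies directly before the gene and overlaps the gene model LOC105244150. Those of *Nr4a3* (chr4:48045071-48045100), *Nr4a1* (chr15:101266610-101266639), and *Egr2* (chr10:67537797-67537826 and chr10:67537494-67537523), all on the plus strand, are 30 bases long. The *Nr4a1* and *Nr4a3* stretches show 2 of their 4 copies whole, and the last base printed for *Nr4a3* begins a further one. The *Nr4a3* stretch runs into the span of its own gene model, the *Nr4a1* and *Egr2* stretches lie within theirs, and each comes before a start listed for the gene. In the *Egr2* labels, nearer and farther are relative to the end of the gene model, and the nearer one is chr10:67537797-67537826. Both CArG boxes lie 72 bases before a listed start.
Nr4a2: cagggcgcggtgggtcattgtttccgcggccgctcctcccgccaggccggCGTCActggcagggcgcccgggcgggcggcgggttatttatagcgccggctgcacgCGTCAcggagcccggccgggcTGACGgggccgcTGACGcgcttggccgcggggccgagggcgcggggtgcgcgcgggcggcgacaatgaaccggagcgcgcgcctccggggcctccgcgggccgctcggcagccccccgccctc
Nr4a3: gggTGACGtagcgtcccatgtCGTCAcatT
Nr4a1: ctgCGTCAatggaaccccgcgtgCGTCAcg
Egr2, nearer start: CCATATATGGgcagcgaCGTCAcgggtatt
Egr2, farther start: CCTTTTTTGGaaagtctcggagaaccggaa

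Array medians lay between 106.7 and 111.1 intensity units, and the median of all values was 6.77 on the log2 scale. T-cell markers were well above it at 0 h, from 9.56 log2 units for *Cd4* to 15.12 for *Cd3g*. *Cd8a* stayed at or below 6.72 on every array, whereas the *Cd8b1* probe read 11.17 to 12.88 throughout. Markers of T cells and of other cells moved with time. The summed intensity of the 5 T-cell markers on the array was 90000 at 0 h, the highest of all conditions, and 34600 at the lowest. That of the 2 B-cell markers on the array was 935 at 0 h and lay between 267 and 1080 over the conditions. The sum of the 4 myeloid markers was 1470 at 0 h, the highest of all conditions, and 352 at the lowest. The 2 NK-cell markers summed to 203 at 0 h and to between 193 and 238 over the conditions. Both B-cell markers and 3 of the myeloid markers exceeded the median at 0 h, and 1 of the 2 NK-cell markers did. Their part in the differences from 0 h was not tested. In such bulk RNA, fewer cells of a type and less RNA per cell cannot be told apart.

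Every member peaked at the first time point after activation. The mean of the 4 cultures at 3 h exceeded 0 h for 7 of 7 members at an adjusted p below 0.05 (limma), against 15.7% of all genes tested that were higher at 3 h. The median change of the members was 4.14 log2 units, whereas that of all genes was 0. The highest level of each gene fell at 3 h in 8 of 8 series, each series being 1 culture in 1 experiment.

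The receptor gene *Nr4a2* had a large rise. Its log2 intensity was 6.70 and 7.76 on the naive arrays of experiments 1 and 2, and at 3 h the 8 arrays spanned 12.64 to 13.26 with a median of 12.93. The rise was 5.69 ± 0.27 log2 units (SE of the fit), or 51.7-fold (adjusted p = 1.51e-20, limma), rank 3 among the rises of all 13817 genes. *Nr4a3* read 7 and 7.11 at 0 h and 10.90 to 11.65 at 3 h with a median of 11.17. Its rise was 4.14 ± 0.20, or 17.7-fold (adjusted p = 3.42e-20). Its other 2 probes rose by 4.42 and 2.08. *Nr4a1*, the receptor widely used as a reporter of antigen receptor signals, read low throughout. It stood at 6.29 and 6.23 at 0 h, below the median of all values, and 7.19 to 8.35 at 3 h with a median of 7.58. The rise of 1.41 ± 0.21 (adjusted p = 2.94e-07) starts from near the bottom of the intensity range, where a change can be understated, so its size is not set against those of the other receptors. It was larger in experiment 1 (1.52 to 2.06 over the cultures) than in experiment 2 (0.97 to 1.13). For all 3 receptors, no array at 3 h overlapped the naive arrays.

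The EGR factors also rose in all 8 series. *Egr2* read 10.07 and 9.69 at 0 h and 14.17 to 14.61 at 3 h with a median of 14.46, a rise of 4.53 ± 0.40, or 23.1-fold (adjusted p = 1.73e-12). *Egr3* read 10.87 and 10.14 at 0 h and 14.43 to 15.06 at 3 h with a median of 14.76, a rise of 4.23 ± 0.53, or 18.8-fold (adjusted p = 8.98e-09). A second *Egr3* probe stayed between 6.76 and 7.45 on all arrays and rose by 0.19, and the mean of both probes gave a rise of 2.21. *Egr1* was well above the median of all values before activation, at 13.25 and 13.77. It reached 15.32 to 15.79 at 3 h with a median of 15.62, which is 60.3% to 83.0% of the brightest probe of the array. Its rise was 2.09 ± 0.51, or 4.25-fold (adjusted p = 0.000883). *Nab2*, the corepressor, read 7.48 and 7.34 at 0 h and 9.41 to 10.12 at 3 h with a median of 9.84. It rose by 2.40 ± 0.14, or 5.27-fold (adjusted p = 7.39e-18). Levels at 3 h did not overlap those at 0 h for any of these genes.

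**Figure D1:**
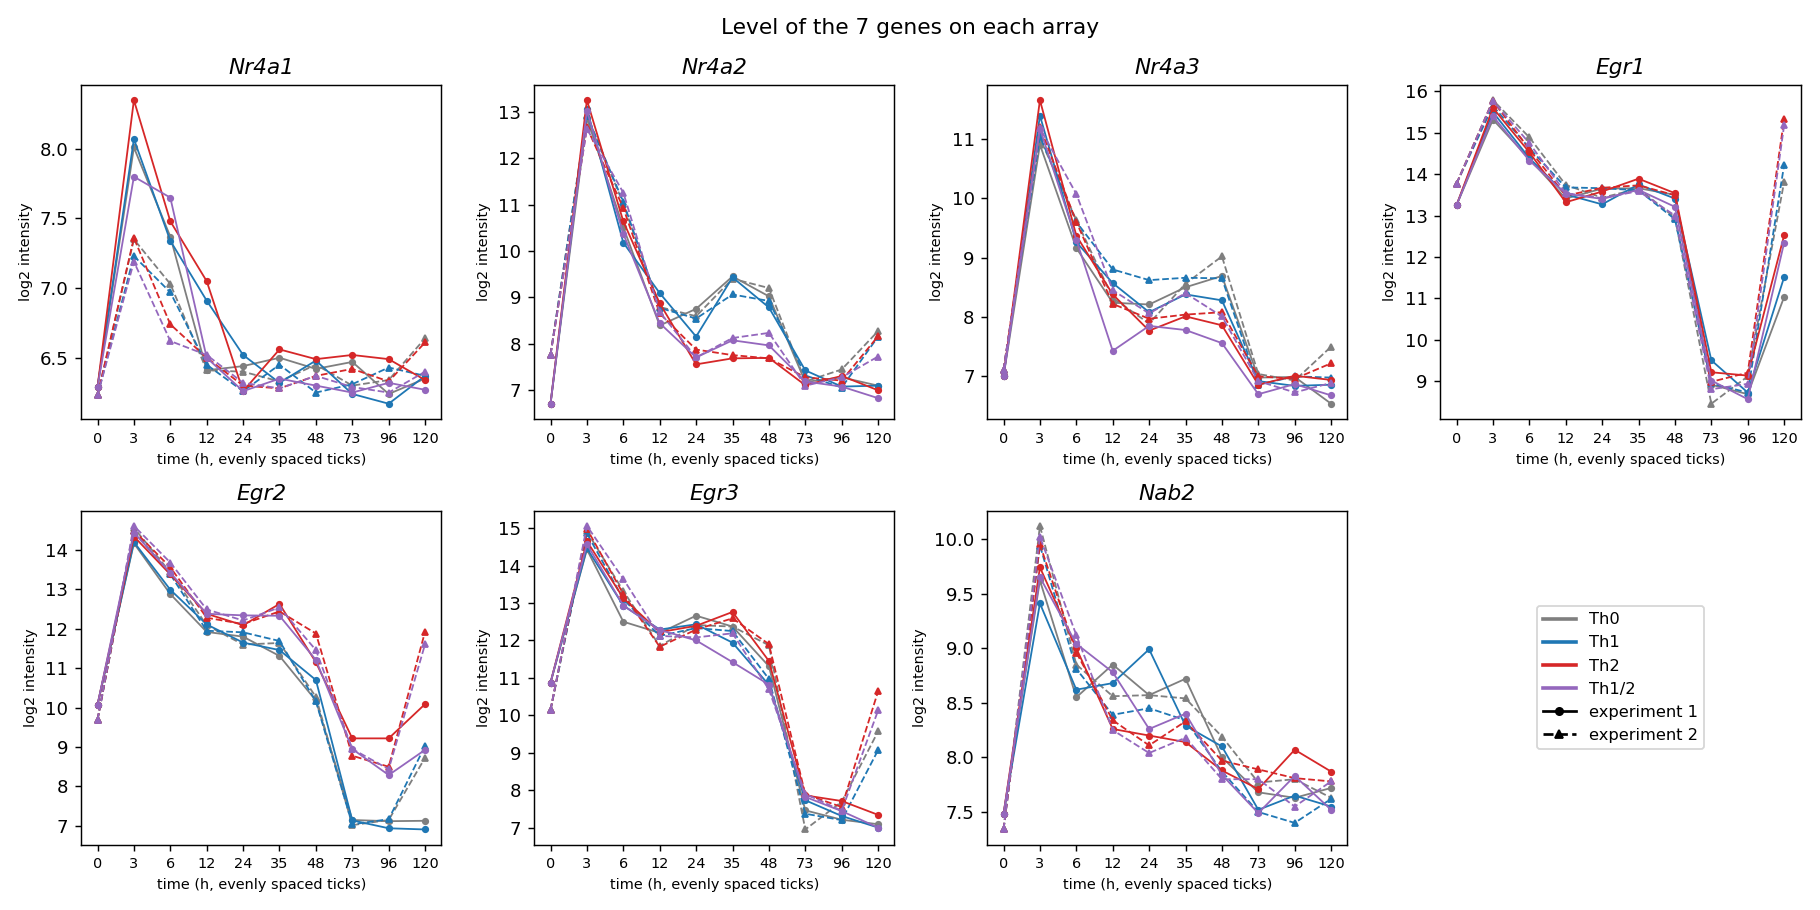
Log2 intensity (vertical axis) of each gene on each array against time in hours (horizontal axis, evenly spaced ticks); colours are the 4 cultures, solid lines with circles experiment 1 and dashed lines with triangles experiment 2, starting from the naive array of the same experiment. Every line peaks at 3 h, and *Egr1*, *Egr2*, and *Egr3* drop between 48 and 73 h in all 4 cultures.

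The peak was followed by an immediate fall of the whole set. From 3 to 6 h, 7 of 7 members fell (19.3% of all genes fell), and from 6 to 12 h, 7 of 7 fell again (13.5% of all genes). *Nr4a2* fell by 2.18 and then by 2.04 log2 units, and *Nr4a3* by 1.70 and then by 1.20. Among the EGR genes, *Egr1* fell by 1.04 and 1.03, *Egr2* by 1.07 and 1.14, and *Egr3* by 1.64 and 0.98. *Nab2* fell by 0.94 and 0.35, and *Nr4a1* by 0.52 and 0.55. Adjusted p for these 14 values lay between 9.88e-13 and 0.0192 from 6 to 12 h and between 1.08e-14 and 0.00759 from 3 to 6 h.

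At 6 h, 6 of 7 members were still higher than at 0 h, against 21.7% of all genes. The exception was *Egr1*, at 1.05 ± 0.51 (adjusted p = 0.0965), which passed with experiment within time as a random block (adjusted p = 0.0314). Without the 120 h arrays, on which the 2 experiments differed, the same difference had an adjusted p of 1.39e-06.

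From 12 to 35 h, most of the set held a plateau above the naive level, and *Egr1* was back at it. At 12, 24, and 35 h, 5 of 7 members were higher than at 0 h (*Nr4a2*, *Nr4a3*, *Egr2*, *Egr3*, and *Nab2*), against 24%, 26.4%, and 26% of all genes. *Egr2* stood 2.32, 2.08, and 2.13 log2 units above 0 h at these times, and *Egr3* 1.61, 1.82, and 1.73. *Nr4a3* stood 1.25, 1.00, and 1.24 above, and *Nab2* 1.10, 0.99, and 0.95. *Egr1* differed from 0 h by 0.02, 0.00, and 0.18, with a 95% interval at 24 h of -1.03 to 1.03, and *Nr4a1* by 0.34, 0.09, and 0.13. *Nr4a2* dipped from 12 to 24 h by 0.60 (adjusted p = 0.00413; 17.3% of all genes fell) and rose by 0.51 from 24 to 35 h (adjusted p = 0.0365; 5.86% of all genes rose), the latter a call lost in 7 of 10 fits that left out 1 culture or the naive cells of 1 experiment. The 0 h level rests on 2 arrays, and these differed by 1.06 for *Nr4a2* and by -0.72 (experiment 2 minus experiment 1) for *Egr3*. Without the naive array of experiment 1, the *Nr4a2* values at these 3 times became 0.95, 0.34 (adjusted p = 0.472), and 0.86. Without that of experiment 2, the *Egr3* calls at 12, 24, and 35 h were lost (adjusted p = 0.175, 0.0962, and 0.121).

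At 48 h, 4 of 7 members were higher than at 0 h, against 25.1% of all genes: *Nr4a2* by 1.20 ± 0.27, *Nr4a3* by 1.22 ± 0.20, *Egr2* by 1.00 ± 0.40, and *Nab2* by 0.54 ± 0.14. *Egr3* stood at 0.72 ± 0.53 (adjusted p = 0.279), which had an adjusted p of 0.00307 without the 120 h arrays. *Egr2*, *Egr3*, and *Nab2* had fallen from 35 to 48 h, 3 of 7 members against 15.4% of all genes, by 1.13, 1.01, and 0.41. The *Egr2* call at 48 h was lost without either naive array (0.81 without that of experiment 2, adjusted p = 0.259, and 1.19 without that of experiment 1, adjusted p = 0.0772) and without the arrays of Th0 cells in experiment 2, Th1 cells in experiment 1, or Th2 cells in experiment 2. The *Nr4a2* call was lost without the naive array of experiment 1 (0.67, adjusted p = 0.121), which leaves 2 members called.

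A second fall followed between 48 and 73 h, and it took the EGR factors below the level of naive cells. In this step 6 of 7 members fell, all but *Nr4a1*, against 16.1% of all genes, with a member median of -1.36 log2 units and a median of 0 over all genes. *Egr1* spanned 12.91 to 13.54 at 48 h and 8.45 to 9.50 at 73 h, a fall of 4.28 ± 0.32 (19.4-fold, adjusted p = 3.27e-14). *Egr3* fell by 3.60 ± 0.33 (-1.76 as the mean of its probes) and *Egr2* by 2.84 ± 0.25, and on the probes used these falls ranked 3 (*Egr1*), 4 (*Egr3*), and 6 (*Egr2*) among all genes. Both experiments gave like values, with a mean *Egr1* step of -4.26 in experiment 1 and -4.30 in experiment 2. *Nr4a3* fell by 1.36 ± 0.13, *Nr4a2* by 1.22 ± 0.17, and *Nab2* by 0.29 ± 0.09, while *Nr4a1* changed by -0.04 (adjusted p = 0.862). *Nr4a1* was already at 6.25 to 6.49 at 48 h, close to its naive level and below the median of all values, where a further fall could not be read. In the study's protocol the cultures were moved to a new plate and split on day 2, so that this handling and the time cannot be told apart. No member passed the test from 73 to 96 h, where the changes lay between -0.18 and 0.05 and the smallest adjusted p was 0.732 (limma; 0 members at an unadjusted p below 0.05).

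At 73 h, 3 of 7 members were lower than at 0 h, against 22.5% of all genes, and at 96 h the same 3 were lower, against 22.4%. These were the EGR factors. *Egr1* stood at -4.54 ± 0.51 log2 units relative to 0 h at 73 h (23.2-fold lower) and at -4.63 ± 0.51 at 96 h (24.8-fold lower, adjusted p = 3.62e-10). *Egr3* stood at -2.88 ± 0.53 and -3.06 ± 0.53 relative to 0 h, which became -1.44 and -1.54 as the mean of its probes. *Egr2* stood at -1.85 ± 0.40 and -2.02 ± 0.40. The NR4A genes and *Nab2* instead returned close to the naive level: at 96 h *Nr4a2* differed from 0 h by -0.03 (95% interval -0.57 to 0.52), *Nr4a3* by -0.13, *Nr4a1* by 0.06, and *Nab2* by 0.31 (adjusted p = 0.0702). Their mean log2 levels at 0 h were already low, at 7.23, 7.05, 6.26, and 7.41, where the median of all values was 6.77. *Egr1*, *Egr2*, and *Egr3* started from 13.51, 9.88, and 10.50. The NR4A genes and *Nab2* thus had little room to read below the naive level, and cannot be set against the EGR genes on this point.

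**Figure D2:**
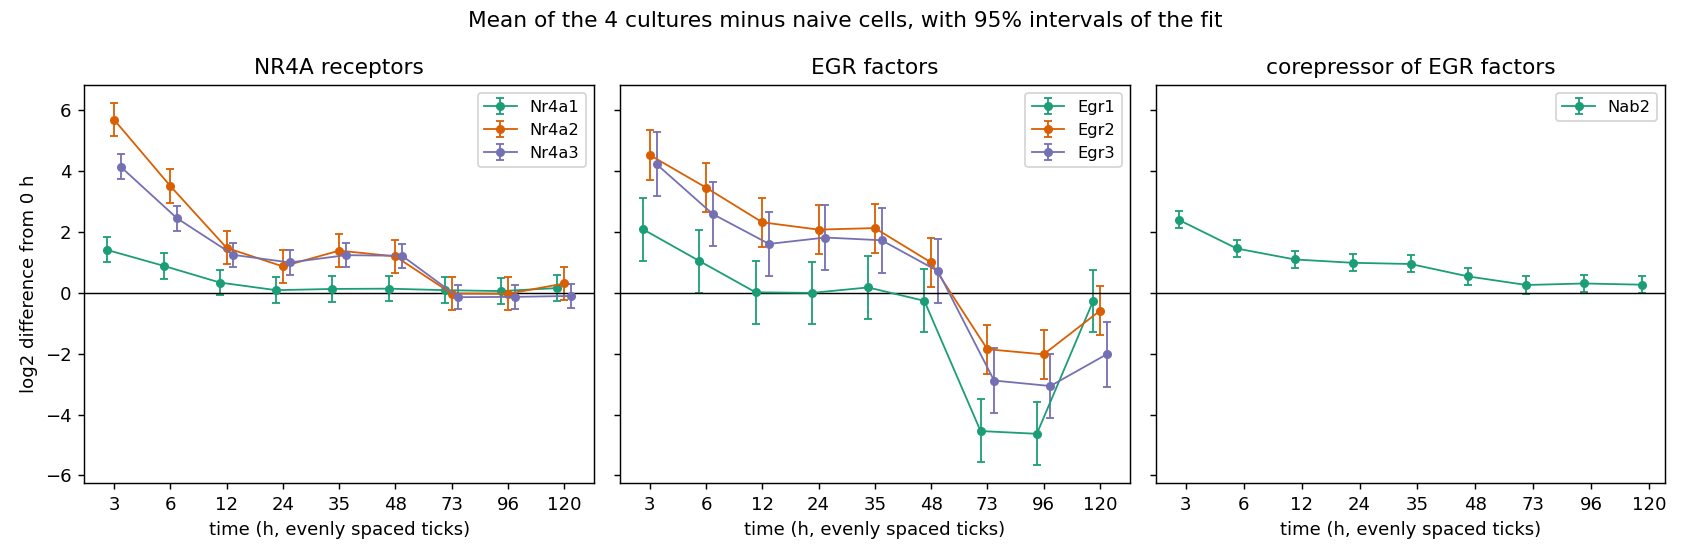
Log2 difference between the mean of the 4 cultures and naive cells (vertical axis) against time in hours (horizontal axis, evenly spaced ticks); points are the fitted means of 8 arrays less 2, and bars are 95% intervals of the fit. The NR4A receptors and *Nab2* return to near 0 by 73 h, whereas *Egr1*, *Egr2*, and *Egr3* lie at -4.54, -1.85, and -2.88 at 73 h. The NR4A receptors and *Nab2* had low levels at 0 h, with little room to read below them.

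At the last time point the 2 experiments differed by up to 2.78 log2 units in the mean of a member. From 96 to 120 h, *Egr1* rose by 4.36 ± 0.32 (20.6-fold, adjusted p = 3.37e-13), the largest rise of all genes in this step, and *Egr2* by 1.44 ± 0.25 (adjusted p = 0.00013). These were 2 of 7 members, against 2.35% of all genes that rose. *Egr1* rose in all 4 cultures of both experiments, by 2.35 to 3.78 in experiment 1 and by 4.70 to 6.25 in experiment 2. For *Egr2*, the rise was 1.58 to 3.43 in experiment 2, whereas in experiment 1 it was -0.02 to 0.87. *Egr3* went opposite ways: it changed by -0.44 to -0.12 in the 4 cultures of experiment 1 and by 1.87 to 3.09 in those of experiment 2, and the mean of 1.04 ± 0.33 missed the threshold (adjusted p = 0.0545).

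At 120 h, *Egr1* read 11.03, 11.51, 12.34, and 12.52 in Th0, Th1, Th1/2, and Th2 cells of experiment 1 and 13.81, 14.22, 15.18, and 15.33 in experiment 2, so that the experiments did not overlap while the cultures kept 1 order in both. *Egr3* spanned 7 to 7.34 in experiment 1 and 9.07 to 10.64 in experiment 2. *Nr4a2* spanned 6.82 to 7.09 and 7.72 to 8.27, also without overlap. *Egr1*, *Egr2*, and *Egr3* were at least 2-fold higher in experiment 2 in all 4 cultures, 3 of 7 members against 0.239% of all genes (33 genes), and at no earlier time was any member so. *Nab2* (mean difference 0.04) and *Nr4a1* (0.17) differed little. Against 0 h, *Egr3* was the only member lower at 120 h (-2.02 ± 0.53, adjusted p = 0.00142), against 22.7% of all genes, and this call was lost without the naive array of experiment 1 (-1.66, adjusted p = 0.0664). By culture, the *Egr3* differences from 0 h ran from -3.87 to -3.52 in experiment 1 and from -1.07 to 0.50 in experiment 2. For *Egr2*, the mean of -0.59 over the 4 cultures joined unlike values: -1.95 in Th0 and -1.91 in Th1 cells, against 1.13 in Th2 and 0.39 in Th1/2 cells. These culture means in turn joined unlike experiments. In experiments 1 and 2, the difference was 0.02 and 2.24 in Th2 and -1.14 and 1.92 in Th1/2 cells. It was -2.94 and -0.96 in Th0 and -3.16 and -0.66 in Th1 cells. Without the Th1/2 arrays of experiment 2, the *Egr2* mean was -0.92.

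**Figure D3:**
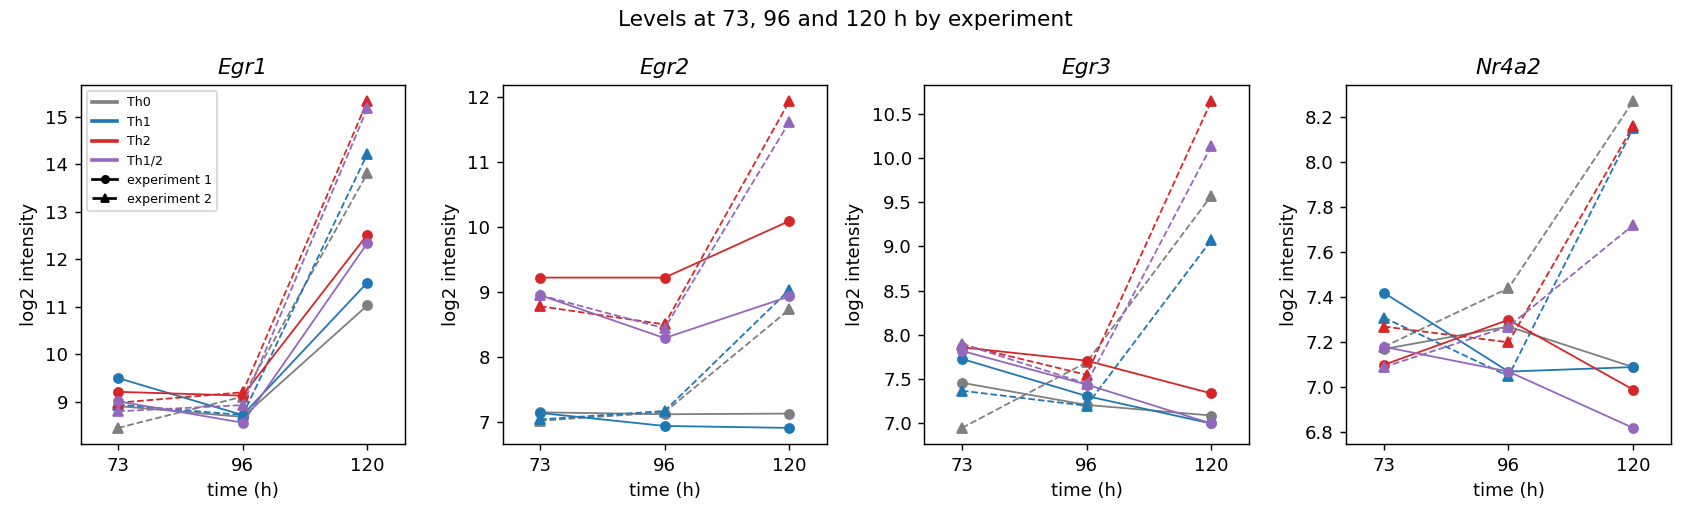
Log2 intensity (vertical axis) of *Egr1*, *Egr2*, *Egr3*, and *Nr4a2* at 73, 96, and 120 h (horizontal axis); colours are cultures, solid lines with circles experiment 1 and dashed lines with triangles experiment 2. At 120 h *Egr3* lies at 7 to 7.34 in experiment 1 and at 9.07 to 10.64 in experiment 2.

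The next question was whether the polarizing signals changed these responses. Every member passed the F-test over time in all 4 cultures, 7 of 7 in each, against 65.2% of all genes in Th0, 64.3% in Th1, 65.7% in Th2, and 68.7% in Th1/2 cells. Over 3 to 12 h, differences between cultures lay between -0.22 and 0.33 log2 units for the 7 members and 6 pairs of cultures, and none passed the test (smallest adjusted p = 0.706, limma; 0 at an unadjusted p below 0.05). The error in this test is pooled over all times, including 120 h, where the experiments differed for the EGR genes. The early window was not refitted without those arrays, so small early differences of these genes could have been missed. The signs of *Egr2* were nevertheless regular in this window: Th1 was lower than Th2 in 6 of 6 arrays matched by experiment and time (mean -0.22, 95% interval -0.81 to 0.37), and Th1/2 was higher than Th1 (0.32), Th0 (0.33), and Th2 (0.10) in 6 of 6 each. Such tallies, here and below, join several times of the same 2 experiments and are not counts of independent replicates. The F-test over the whole profile called *Nr4a2* and *Egr2* in Th1 against Th2 (2 of 7 members; 12.5% of all genes), in Th2 against Th0 (2 of 7; 16.7%), and in Th1/2 against Th0 (2 of 7; 16.5%). It called *Egr2* in Th1/2 against Th1 (1 of 7; 9.84%). In Th1 against Th0 (2.32% of all genes) and Th1/2 against Th2 (1.98%), limma called 0 of 7 members, and 0 at an unadjusted p below 0.05. In the profile tests, *Nr4a2* was lost in Th1 against Th2 when either Th2 set or the experiment 1 Th1 set was left out. In Th1/2 against Th0, both calls were lost without the Th0 arrays of experiment 1. Only *Egr2* was called without the Th0 arrays of experiment 2 or the Th1/2 arrays of experiment 1. Without the Th1/2 arrays of experiment 2, both were lost and *Nr4a3* was called instead. The *Egr2* call in Th1/2 against Th1 was lost without the Th1 arrays of experiment 1. These comparisons share cultures with each other. The share of members called is near that of all genes in most of them, so the result lies in which members were called and when.

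The *Egr2* differences passed the test in the late window, and followed the IL-4 in the medium: its level was higher in the cultures with IL-4 (Th2 and Th1/2) than in those with anti-IL-4 (Th1 and Th0). At 73 h it read 9.22 and 8.78 in Th2 cells and 8.95 and 8.95 in Th1/2 cells of experiments 1 and 2, against 7.14 and 7.04 in Th1 cells and 7.15 and 7.02 in Th0 cells. These levels did not overlap. Over 48 to 120 h the mean level was 10.10 in Th2, 9.73 in Th1/2, 8.14 in Th1, and 8.09 in Th0 cells. Th2 exceeded Th0 by 2.01 ± 0.25 log2 units (4.01-fold, adjusted p = 2.49e-08; higher in 8 of 8 matched arrays, 1 of 7 members called against 25% of all genes). Th1 was lower than Th2 by 1.96 ± 0.25 (adjusted p = 4.64e-08; lower in 8 of 8; 1 of 7 members, 20.4% of all genes). Th1/2 exceeded Th1 by 1.59 ± 0.25 (adjusted p = 4.7e-06; 8 of 8; 1 of 7 members, 15.7% of all genes). It exceeded Th0 by 1.64 ± 0.25 (adjusted p = 1.82e-06; 8 of 8; 2 of 7 members, 23.9% of all genes). Within experiments 1 and 2 alone, Th2 minus Th0 was 2.03 and 1.98.

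The neighbours in this order did not differ beyond their error. Th1/2 minus Th2 was -0.37 (95% interval -0.88 to 0.14, adjusted p = 0.639), and Th1 minus Th0 was 0.04 (-0.47 to 0.55, adjusted p = 0.975). The gap was present before the late window. Over 24 and 35 h, Th2 minus Th0 was 0.73 (4 of 4 matched arrays, adjusted p = 0.361, unadjusted p = 0.0469) and Th1/2 minus Th0 was 0.77 (4 of 4, adjusted p = 0.335, unadjusted p = 0.0376), and *Egr2* was called in both without the 120 h arrays and with experiment within time as a random block. Th2 minus Th0 went through 0.41, 1.06, 1.29, 1.92, 1.73, and 3.08 over the 6 times from 24 to 120 h. The other EGR factors did not pass this test: late Th2 minus Th0 was 0.62 for *Egr1* (adjusted p = 0.177), positive in 8 of 8 matched arrays and called with the random block, and 0.40 for *Egr3* (adjusted p = 0.458). For *Egr2* the difference was 1.64 without the 120 h arrays, still past the threshold.

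*Nr4a2* differed in the middle window, in the other direction. During the plateau it stayed up in the cultures without added IL-4 and sank in those with it. At 35 h it read 9.45 and 9.40 in Th0 cells and 9.43 and 9.06 in Th1 cells, against 8.07 and 8.12 in Th1/2 cells and 7.68 and 7.75 in Th2 cells, with no overlap. Over 24 and 35 h, Th2 was lower than Th0 by 1.34 ± 0.24 (2.53-fold, adjusted p = 0.000172; lower in 4 of 4 matched arrays; 1 of 7 members, 3.76% of all genes). Th1/2 was lower than Th0 by 1.15 ± 0.24 (adjusted p = 0.00125; 4 of 4; 1 of 7 members, 4.2% of all genes). Th1 exceeded Th2 by 1.08 ± 0.24 (adjusted p = 0.00282; 4 of 4; 1 of 7 members, 3.72% of all genes), a call lost without the Th2 arrays of experiment 1 (0.99, adjusted p = 0.0827). Th1/2 was lower than Th1 by 0.90 ± 0.24 (adjusted p = 0.0249; 4 of 4; 1 of 7 members, 2.78% of all genes), a call lost without the Th1 arrays of either experiment or the Th1/2 arrays of either experiment (adjusted p between 0.118 and 0.159).

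The *Nr4a2* gap was still -1.43 (Th2 minus Th0) at 48 h and 0.00 at 73 h, when the gene had fallen in all cultures. Its neighbours in the order again did not differ beyond their error: Th1/2 minus Th2 was 0.19 (95% interval -0.30 to 0.67) and Th1 minus Th0 was -0.26 (-0.74 to 0.23). *Nr4a3* and *Nab2* had smaller differences in the same window, -0.34 (adjusted p = 0.418) and -0.40 (adjusted p = 0.0559) for Th2 minus Th0. Late *Nr4a3* was lower in Th1/2 than in Th0 cells by 0.42 ± 0.13 (adjusted p = 0.0119). This call was lost without the Th0 arrays of experiment 2 (-0.25) or the Th1/2 arrays of experiment 1 (-0.32). Most of the difference came from 48 h, where it was -1.07, whereas it was -0.20, -0.16, and -0.23 at 73, 96, and 120 h. At 48 h *Nr4a3* was also lower in Th2 than in Th0 cells (-0.88).

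**Figure D4:**
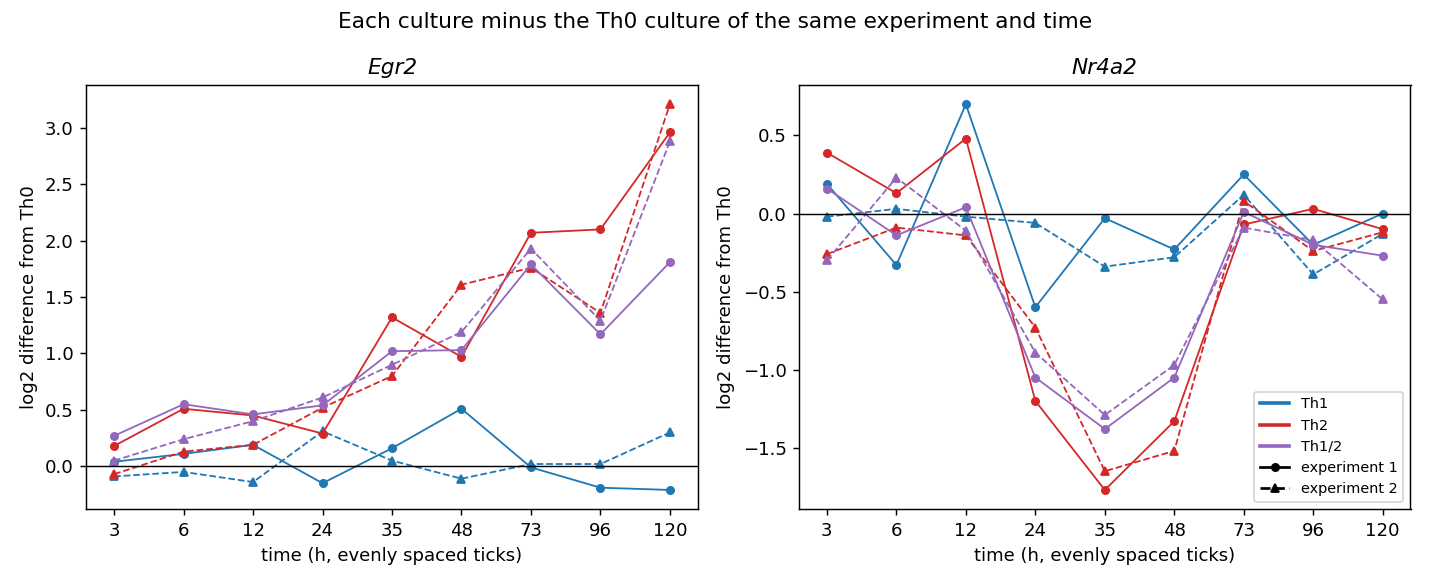
Log2 difference of Th1, Th2, and Th1/2 cells from Th0 cells of the same experiment and time (vertical axis) against time in hours (horizontal axis, evenly spaced ticks) for *Egr2* (left) and *Nr4a2* (right); solid lines with circles are experiment 1 and dashed lines with triangles experiment 2. As means of the experiments, the *Egr2* difference in Th2 and Th1/2 cells is 1.92 and 1.86 at 73 h. It is lower at 96 h (1.73 and 1.23) and highest at 120 h (3.08 and 2.34). *Nr4a2* dips in both cultures at 24, 35, and 48 h and is back near 0 at 73 h.

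Other genes of the same pathways were read from lists. Of 13 factors that act upstream of immediate early genes, 12 were tested, and at 3 h 2 rose and 3 fell (21.5% of all genes fell), with a median change of 0.08. The cyclic AMP responsive factor *Crem*, which yields a repressor of CRE-driven genes, rose by 4.73, and *Nfatc1* by 0.59. *Nfatc3* fell by 0.78 and *Nfatc2* by 0.53. Among other immediate early genes, 18 of 20 were tested and 11 rose and 1 fell at 3 h, with a median of 1.45. The AP-1 subunit *Fosl2* rose by 5.76 and the cytokine gene *Tnf* by 4.78, and *Jun* fell by 1.31. From 48 to 73 h, 9 of these 18 fell and 0 rose (median -0.62; 16.8% of all genes rose), and from 96 to 120 h, 7 rose and 0 fell (median 0.42, all genes -0.01; 3.47% of all genes fell). At 120 h, 8 of the 18 were at least 2-fold higher in experiment 2 in all 4 cultures, so that the difference between experiments was not confined to the EGR genes.

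The genes reported to be controlled by EGR2, EGR3, or NR4A proteins, or known from T-cell tolerance, moved in both directions. Of 19, 17 were tested, and at 3 h 10 rose and 3 fell (15.7% of all genes rose and 21.5% fell), with a median of 0.48. *Il2* rose by 5.53 and the death ligand *Fasl* by 2.70. The diacylglycerol kinases *Dgkz* and *Dgka*, which dampen antigen receptor signals, fell by 1.25 and 1.19. From 48 to 73 h, 4 of these 17 fell and 7 rose (median 0.02; 16.1% of all genes fell and 16.8% rose). From 96 to 120 h, 0 rose and 1 fell (2.35% of all genes rose and 3.47% fell). None of the 17 was at least 2-fold higher in experiment 2 in all cultures at 120 h, as were 0.239% of all genes, so that few or none would be met in a list of this size. Of 5 close relatives of the members, 4 were tested: *Egr4* rose by 1.75 and the corepressor *Nab1* by 1.24 at 3 h, and the retinoid X receptor *Rxrb*, a partner of NR4A receptors, fell by 0.63.

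The profiles of the members were alike in shape. Over the 37 condition means, Pearson's r between members lay between 0.599 (*Nr4a1* and *Egr1*) and 0.977 (*Nr4a2* and *Nr4a3*), with a median of 0.868 over 21 pairs. Among all expressed genes, the profile most like that of *Nr4a2* was *Nr4a3* and the reverse, followed by *Plaur* (0.971 and 0.968) and then by *Slc41a1* (0.967) and *Cd40lg* (0.963). For *Nab2*, they were *Nr4a3* (0.954), *Plaur* (0.950), and *Slc41a1* (0.949), and for *Nr4a1*, *Slc41a1* (0.957), *Cbr3* (0.956), and *Lsmem1* (0.955). *Egr2* was most like *Egr3* (0.956), *Pim3* (0.945), and *Plk3* (0.942). *Egr3* was most like *Nfkbid* (0.962), *Gabpa* (0.959), and *Rel* (0.957). *Egr1* was most like *Dusp2* (0.962), *Lats1* (0.933), and *Zc3h12a* (0.898). These correlations describe conditions that share experiments and a common activation, and carry no test.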

How the data were processed

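RNA of 74 samples was hybridised to Illumina mouse bead arrays, 1 array per sample. The values deposited by the authors are linear intensities, and the study describes background correction and quantile normalization of its data. The array medians of the deposited values still differed slightly, from 106.7 to 111.1. The sources used here do not give the software. The values were taken to log2 without further normalization. Of 45135 probes, 34773 had 1 gene symbol, 18 several, and 10344 none. Probes were kept when the mean of any condition lay above the overall median intensity, and each gene was represented by its brightest probe. A linear model with 1 mean for each of 37 conditions (37 residual degrees of freedom) was fitted with limma 3.58.1 in R 4.3.3. P-values were adjusted by the Benjamini-Hochberg method over 13817 genes within each comparison, with a threshold of 0.05, and errors are SE of the fit. With 2 arrays per condition, precision is limited by their number. Windows averaged 3 to 12 h, 24 and 35 h, and 48 to 120 h. The steps were tested on simulated data. The text names the 7 members, for each list the 2 largest rises and falls at 3 h past the threshold, and for each member the 3 genes with the most similar profile. Members, lists, and windows were chosen with earlier results of these data known. Alternatives changed the normalization, offset, probe filter, probe choice, variance model, blocking, and the arrays included.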

Additional observations from a re-analysis of the deposited data

Results flagged for a closer look

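Differences between cultures that changed with time were tested as the late or middle difference less the early one (limma), a test chosen after the data were seen. For *Egr2*, the late less the early difference was -1.74 log2 units for Th1 minus Th2 (adjusted p = 0.0014), 1.77 for Th2 minus Th0 (adjusted p = 0.000886), 1.27 for Th1/2 minus Th1 (adjusted p = 0.0355), and 1.31 for Th1/2 minus Th0 (adjusted p = 0.0176). For *Nr4a2*, the middle less the early difference passed the threshold for Th2 minus Th0, at -1.42 (adjusted p = 0.00848), and missed it for Th1/2 minus Th0, at -1.13 (adjusted p = 0.0631), Th1 minus Th2, at 1.08 (adjusted p = 0.0955), and Th1/2 minus Th1, at -0.79 (adjusted p = 0.527). From 96 to 120 h, *Egr3* moved down in every culture of experiment 1, by a mean of -0.31, and up in every culture of experiment 2, by a mean of 2.38. This difference between experiments was not tested.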

How the results depend on the processing

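Of 698 counts of members called under 20 alternatives, 641 stayed within 1.5 times the main count and 57 did not. Of 1212 values of named members, 1183 kept their direction and side of the threshold, 29 changed side, and 0 reversed. The *Egr2* late differences for Th1 minus Th2, Th2 minus Th0, Th1/2 minus Th1, and Th1/2 minus Th0 kept their calls in every alternative. With normexp and quantile normalization, 2 members were called in each of late Th1 minus Th2, middle Th2 minus Th0, and middle Th1/2 minus Th0, *Nab2* being added. With the replicate block (the experiment number as a term), 2 were called in the Th1/2 against Th1 profiles (*Nr4a3*, *Egr2*) and 2 in late Th2 minus Th0 (*Nr4a2*, *Egr2*), and *Egr3* passed from 96 to 120 h (adjusted p = 0.0312); the block changed no other count by over 1.5 times. Residuals of arrays of the same experiment and time had a median correlation of 0.536 (lowest 0.011 over 108 pairs), against 0.106 over all 630 pairs of the same experiment. The lowest pairs fell short of the criterion set for pairing, and the labels do not say what the numbers mark, so the fit without the block was kept. The correlation is a hint that arrays of 1 number and time share variation. Where they do, the fit kept here overstates the error of differences between cultures and understates that of differences between times. A culture difference that missed the threshold in this fit is therefore not shown to be absent. With experiment within time as a random block (correlation 0.34), 0 members were called from 24 to 35 h; 4 in the profiles of Th2 against Th0, Th1/2 against Th1, and Th1/2 against Th0 and in late Th1 minus Th2; 3 in middle Th1 minus Th2, middle Th2 minus Th0, late Th2 minus Th0 (*Nr4a2*, *Egr1*, *Egr2*), and middle Th1/2 minus Th0; and 2 in late Th1/2 minus Th1. *Nab2* from 48 to 73 h was then lost (adjusted p = 0.0845). Without the Th1/2 array at 12 h of experiment 1 and the Th0 array at 96 h of experiment 2, 2 members were called from 12 to 24 h and 2 in middle Th2 minus Th0. Without the 120 h arrays, chosen after seeing the data, 4 were called in Th1/2 against Th0 profiles and 2 in Th1/2 against Th1 profiles, middle and late Th1 minus Th2, middle and late Th2 minus Th0, and middle Th1/2 minus Th1 and minus Th0.

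Leaving out 1 culture or the naive cells of 1 experiment in turn, members called ranged from 2 to 4 at 48 h, 0 to 2 at 120 h, 1 to 2 from 12 to 24 h, and 0 to 1 from 24 to 35 h. In the profile tests they ranged from 1 to 2 (Th1 against Th2), 0 to 1 (Th1/2 against Th1), and 0 to 2 (Th1/2 against Th0). In the middle window they ranged from 0 to 1 (Th1 minus Th2 and Th1/2 minus Th1) and 1 to 2 (Th2 minus Th0 and Th1/2 minus Th0), and in the late window from 1 to 2 (Th2 minus Th0) and 1 to 3 (Th1/2 minus Th0). The cause of these changes was not tested. A culture left with 1 array per time was assumed to vary like the others. The 0 h level rests on 2 arrays, which limits every difference from it.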
